A study of Rattus norvegicus with 12 samples.

Results

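The transcripts of the integrated stress response were followed in cultured neonatal rat cardiac fibroblasts after depletion of Yap, Wwtr1 or both. The set held 10 genes taken by symbol from the deposited expression table: Atf4, Ddit3, Ddit4, Asns, Trib3, Chac1, Psat1, Phgdh, Sesn2 and Slc7a11. All 10 were present among the 12271 genes of the table, and all 10 reached the minimum mean of 10 normalized counts that left 11871 genes for testing. Cells came from heart ventricles of Sprague Dawley rats at postnatal day 2 and were grown in medium with 15% serum. After 16 hours they received 25 nM of each of 2 siRNAs per target, and RNA was collected 48 hours after transfection. These serum, plating and collection details are those of the sample labels. The study's methods give a different serum share, a longer time before transfection and a later collection, 48 hours after a medium change that followed transfection. The 4 groups, each with 3 libraries from separate litters, received negative control siRNA, siRNA against Yap (gene Yap1), siRNA against Wwtr1 (also called Taz), or siRNA against both (the double knockdown). The negative siRNA libraries are called the controls. Every group, the controls included, was thus transfected with siRNA, and cells without siRNA were not analysed here. With a dose given per target, the double knockdown would have received more siRNA than the other groups. The amount of siRNA and the loss of both targets cannot be told apart there. The siRNA label of the double knockdown names only the Wwtr1 siRNAs, and the series design text speaks of myocytes where the title and sample labels speak of fibroblasts. The question asked of these genes was whether the rise of double-stranded RNA sensors after knockdown came with a response of ATF4 and its targets.

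In the integrated stress response, kinases that sense double-stranded RNA (PKR, gene Eif2ak2), unfolded protein in the endoplasmic reticulum (PERK, Eif2ak3), amino acid shortage (GCN2, Eif2ak4) or heme shortage (HRI, Eif2ak1) phosphorylate the initiation factor eIF2 alpha. General translation then slows while the mRNA of the transcription factor ATF4 is translated more, and ATF4 turns on genes for amino acid supply, tRNA charging and redox balance together with CHOP (gene Ddit3) and feedback regulators. RNA sequencing reads the mRNA of Atf4 and of its targets. Phosphorylation of eIF2 alpha and ATF4 protein were not measured, and in bulk RNA fewer cells of a type and less RNA per cell cannot be told apart.

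Knockdown was seen in every library. Yap1 ranged from 2984 to 3776 normalized counts in the controls, from 532 to 625 after Yap knockdown, and was 713, 739 and 1474 in double knockdown replicates 1, 2 and 3. Wwtr1 ranged from 2280 to 2565 in the controls, from 524 to 637 after Wwtr1 knockdown and from 731 to 1056 in the double knockdown. Library totals, recovered from the normalized table in units of 1e+06 reads, ran from 33.9 to 41.1, and the lowest value of any member in any library was 871 normalized counts, so counting error was small for all 10. All 8 fibroblast markers were detected, with summed levels from 2.56e+06 to 3.74e+06 normalized counts, and those of 7 cardiomyocyte markers ran from 41243 to 89342, with no marker at 0 throughout a group. The summed level of 7 macrophage markers was 23998 in double knockdown replicate 3 against 3857 and 7358 in the other 2 double knockdown libraries, 6539 to 9851 after Wwtr1 knockdown, and 9384 to 15398 with negative or Yap siRNA. For 6 endothelial markers it was 544 to 830 in the controls and 1207 to 1525 in the double knockdown, and with 889 to 1034 after Yap knockdown and 887 to 1094 after Wwtr1 knockdown both single knockdowns were also above the controls. Of the 7 macrophage markers 1 was called lower in the double knockdown (15.6% of all genes). Without replicate 3 it was 6, where 2042 of 11871 genes were called lower. Of the 6 endothelial markers 4 were called higher (17.1% of all genes). Without replicate 3 it was 2, where 2012 of 11871 genes were called higher. Of the 8 fibroblast markers 3 were called higher and 2 lower, with or without replicate 3. The part of these other cells in the results was not tested. Double knockdown replicate 3 also stood apart over all genes: chi-square per gene was 123.1 and 127.6 against the other 2 libraries of its group, and 19.95 to 50.4 for all other pairs within a group. Each count of genes was also made without each library.

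Most of the 10 genes fell in the double knockdown. After the single knockdowns 2 of 10 were called in each with no replicate block, and after Yap knockdown 8 of 10 with the block and without the double knockdown libraries (16.0% of all genes). A call needed an adjusted p under 0.05 in limma (Benjamini-Hochberg over all genes tested). After Yap knockdown 1 gene rose (Ddit4) and 1 fell (Asns) against negative siRNA, 2 of 10 where 4.8% of all genes tested were called (3.02% higher, 1.78% lower). After Wwtr1 knockdown 2 rose (Ddit3 and Trib3) and none fell, where 8.96% of all genes were called (5% higher, 3.96% lower). At an unadjusted p under 0.05, 7 of the 10 passed after Yap knockdown (19.7% of all genes) and 4 after Wwtr1 knockdown (23.9% of all genes). In the double knockdown 2 rose (Ddit3 and Ddit4), 7 fell (Atf4, Asns, Chac1, Psat1, Phgdh, Sesn2 and Slc7a11), and Trib3 did not pass the test. Over all genes 32.8% were called in that comparison, 17.1% higher and 15.6% lower. The libraries of both groups did not overlap for 7 of 10 genes after Yap knockdown (26.1% of all genes), 4 of 10 after Wwtr1 knockdown (32.7%) and 9 of 10 in the double knockdown (44.6%). The median log2 fold change of the 10 genes was -0.21 after Yap knockdown, -0.02 after Wwtr1 knockdown and -0.61 in the double knockdown, whereas the median of all genes was -0.00, 0.00 and 0.00. These 3 comparisons share the same control libraries, so their values are given side by side and are not independent of each other.

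**Figure D1:**
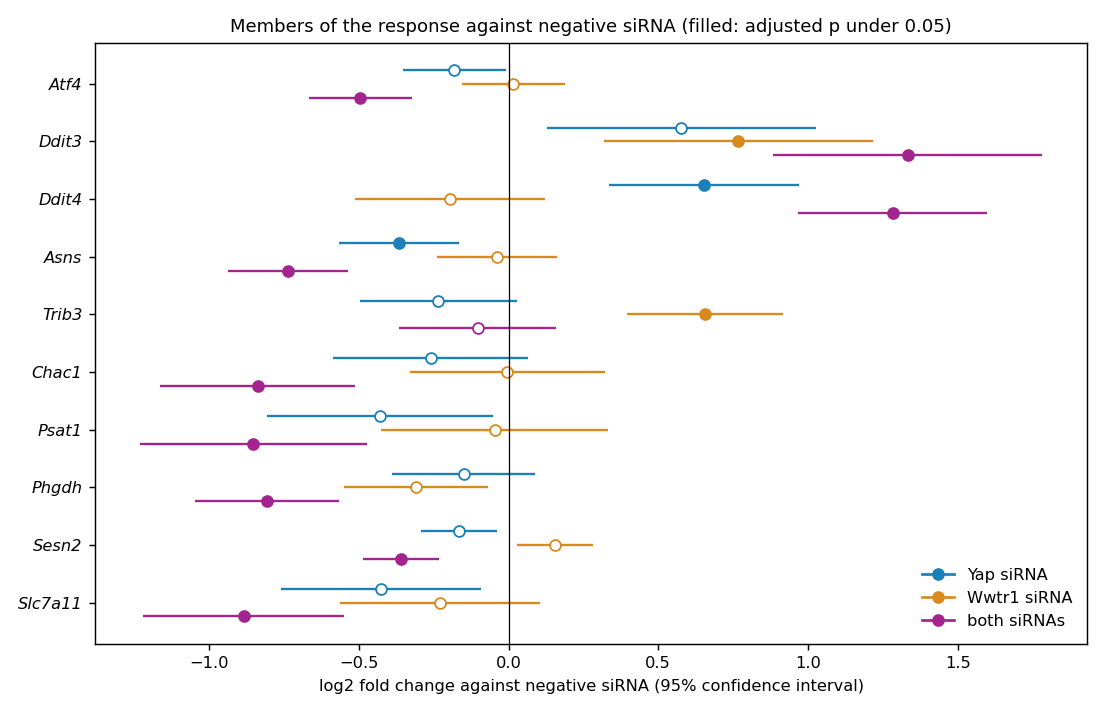
The horizontal axis gives the log2 fold change against negative siRNA for each of the 10 genes, with the 95% confidence interval from limma as a line, for Yap siRNA, Wwtr1 siRNA and both siRNAs (3 libraries per group). Filled points passed an adjusted p under 0.05: 2 after Yap knockdown, 2 after Wwtr1 knockdown and 9 with both, of which Ddit3 and Ddit4 lie above 0 and the other 7 below.

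The calls of the single knockdowns depended on the fit. Without a trend in limma 0 genes were called after Yap knockdown (2.48% of all genes) and 1 after Wwtr1 knockdown (7.01%). With 1 library left out the calls ran from 0 to 3 after Yap knockdown (0.935% to 6.44% of all genes). After Wwtr1 knockdown they ran from 1 to 2 (4.62% to 11.95%). With the replicate number as a block over all 12 libraries 3 genes were called after Yap knockdown (7.36% of all genes) and 3 after Wwtr1 knockdown (11.1%). Same-numbered negative, Yap and Wwtr1 siRNA libraries deviated together from their group means, and with the block but without the double knockdown libraries 8 of 10 genes were called after Yap knockdown (2 higher, 6 lower, with 16.0% of all genes called). The added genes were Ddit3, which was higher, and Atf4, Trib3, Chac1, Psat1 and Slc7a11, which were lower. After Wwtr1 knockdown the same block added Phgdh as lower (adjusted p = 0.00311, limma), for 3 calls where 21.3% of all genes were called. In the double knockdown against negative siRNA the same 9 genes passed with every library left out in turn, replicate 3 with its weaker Yap1 depletion included. Without that replicate the median of the 10 genes was -0.60, Ddit3 and Ddit4 were at log2 1.40 and 1.21, and the 7 falling genes lay between -1.01 (Psat1) and -0.35 (Sesn2).

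Atf4 mRNA itself fell in the double knockdown and, with no replicate block, passed in neither single knockdown. It was 22466, 22695 and 24830 normalized counts in the 3 negative siRNA libraries, 20545, 19581 and 21560 after Yap knockdown, and 22270, 23431 and 25096 after Wwtr1 knockdown. It was 15599, 18238 and 15890 in the double knockdown. All 3 double knockdown libraries were thus below all of the other 9, the Yap knockdown libraries were also below the controls, and the Wwtr1 knockdown libraries overlapped with them. Its mean was 23331 ± 1304 (SD, n = 3) in the controls and 16575 ± 1447 (SD, n = 3) in the double knockdown, where it fell by 29.1% (log2 -0.50, SE 0.08, adjusted p = 0.000663 by limma), and its log2 fold change was -0.18 after Yap knockdown (adjusted p = 0.227 by limma, and 0.0287 with the replicate block and without the double knockdown libraries) and 0.02 after Wwtr1 knockdown (adjusted p = 0.928 by limma, 95% confidence interval -0.16 to 0.19).

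Ddit3, which encodes CHOP, a transcription factor induced by ATF4 and linked to stress-induced cell death, moved the other way. It was 1766, 1714 and 1677 normalized counts in the controls, a group with little spread. It was 3089, 2750 and 1982 after Yap knockdown and 4222, 2603 and 2279 after Wwtr1 knockdown. After depletion of both it was 4876, 4195 and 3976. Every knockdown library was above every control library, and replicate 1 was highest in each knockdown group. Ddit3 rose 2.52-fold in the double knockdown (log2 1.33, SE 0.21, adjusted p = 0.000539 by limma) and 1.70-fold after Wwtr1 knockdown (log2 0.77, SE 0.21, adjusted p = 0.0382 by limma). The latter call was lost without any 1 of 7 libraries (negative replicates 1 to 3, Yap replicate 2, Wwtr1 replicates 1 and 2, double knockdown replicate 2), and without Wwtr1 replicate 1 the log2 fold change was 0.50 (adjusted p = 0.113 by limma). After Yap knockdown the log2 fold change of 0.58 did not pass (adjusted p = 0.142 by limma) and passed with the replicate block (0.0365 over all 12 libraries).

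The amino acid synthesis enzymes fell together in the double knockdown. Asns (asparagine synthetase) was 9251, 9737 and 9665 normalized counts in the controls and 5249, 6199 and 5804 in the double knockdown, with no overlap. It fell by 39.9% (log2 -0.73, SE 0.09, adjusted p = 0.000139 by limma). After Yap knockdown alone Asns was 7264, 7019 and 7977, also below all control libraries, and fell by 22.4% (log2 -0.37, adjusted p = 0.0447 by limma). After Wwtr1 knockdown it was 8098, 10050 and 9884, around the control level. That Asns call, made in the fit of all 12 libraries with no replicate block, was lost without any one of 8 libraries. With the block and without the double knockdown libraries Atf4, Chac1, Psat1 and Slc7a11 passed too, and Psat1 also passed with only the groups compared (adjusted p = 0.0375 by limma).

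Phgdh and Psat1 encode the first and the next enzyme of serine synthesis from a glycolytic intermediate. Phgdh was 10409, 9682 and 11749 normalized counts in the controls and 5444, 6051 and 6707 in the double knockdown, and fell by 42.9% (log2 -0.81, SE 0.11, adjusted p = 0.000236 by limma). It was 8986, 9089 and 10608 after Yap knockdown and 7661, 8435 and 9641 after Wwtr1 knockdown, so the Wwtr1 siRNA libraries lay just below the controls. Psat1 was 3289, 3459 and 3645 in the controls, 2364, 2520 and 2849 after Yap knockdown and 2922, 3500 and 3682 after Wwtr1 knockdown. In the double knockdown Psat1 was 1358, 2186 and 2376, and it fell by 44.6% (log2 -0.85, SE 0.17, adjusted p = 0.00301 by limma) with the widest spread of the 10 genes in that group, a coefficient of variation of 27.4%. Replicate 1 was the lowest double knockdown library for both enzymes.

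**Figure D2:**
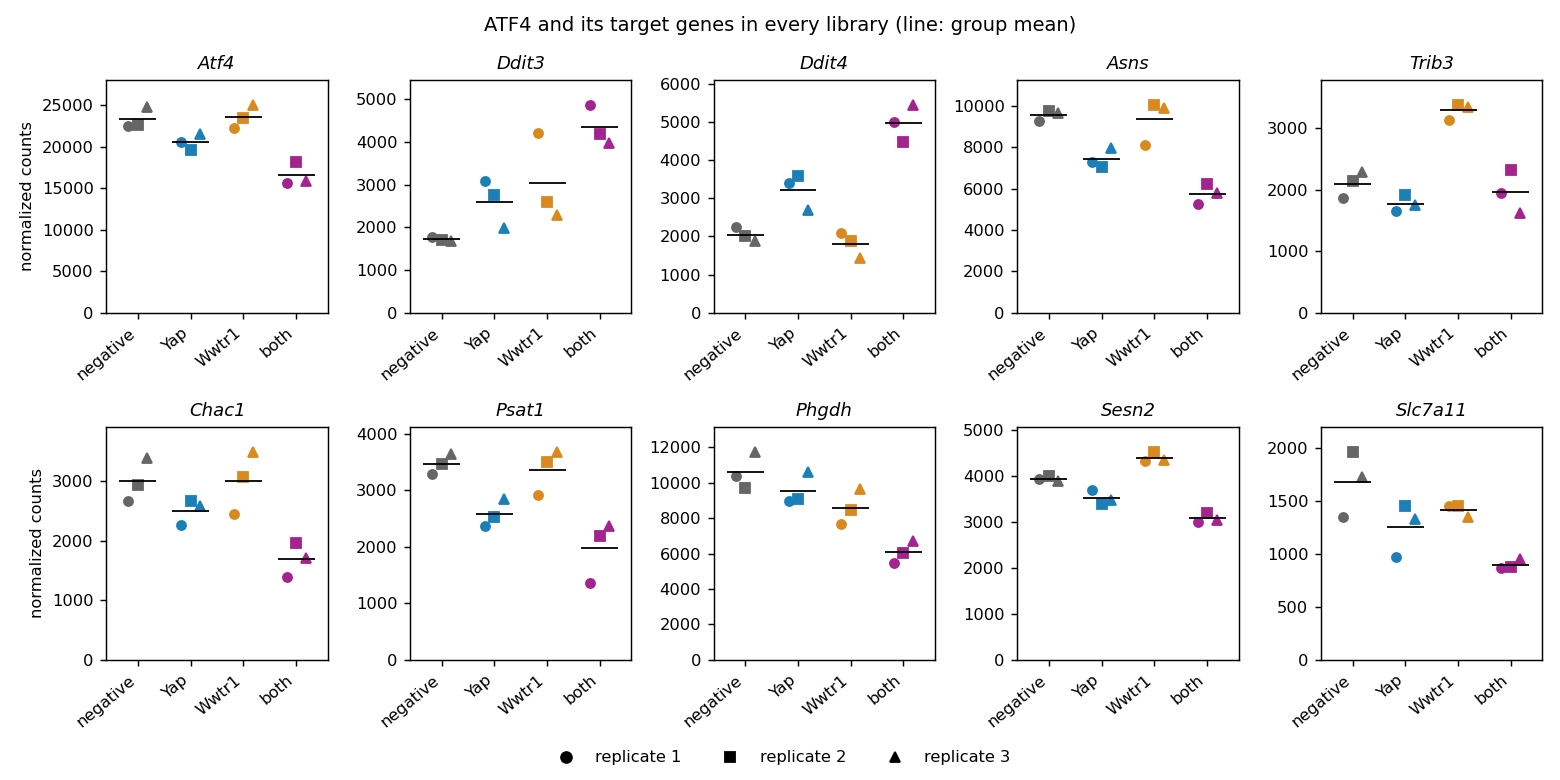
Each panel shows 1 gene in normalized counts on an axis from 0, with the 4 groups (negative siRNA, Yap siRNA, Wwtr1 siRNA, both) on the horizontal axis, a point per library shaped by replicate and a line at the group mean. With both siRNAs all 3 points lie below the negative siRNA points for 7 genes and above them for Ddit3 and Ddit4, while Trib3 overlaps and stands highest after Wwtr1 knockdown.

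Slc7a11, Chac1 and Sesn2 act on redox balance and nutrient signalling, and all 3 fell in the double knockdown. Slc7a11, the cystine importer that feeds glutathione synthesis, was 1351, 1968 and 1725 normalized counts in the controls and 871, 879 and 951 in the double knockdown, and fell by 45.8% (log2 -0.88, SE 0.15, adjusted p = 0.00115 by limma). Chac1, which degrades glutathione, was 2657, 2940 and 3382 in the controls and 1388, 1954 and 1708 in the double knockdown, and fell by 44.0% (log2 -0.84, SE 0.15, adjusted p = 0.00137 by limma). Chac1 was 2254, 2656 and 2572 after Yap knockdown, just below the controls, and 2449, 3065 and 3490 after Wwtr1 knockdown, which overlapped with them. Slc7a11 was 974, 1460 and 1333 after Yap knockdown and 1451, 1455 and 1348 after Wwtr1 knockdown, and both overlapped with the controls. The glutathione-feeding importer and the glutathione-degrading enzyme thus both had their lowest libraries in the double knockdown. Sesn2, a leucine-binding inhibitor of mTORC1 signalling, was 3939, 4010 and 3895 in the controls, 3709, 3396 and 3474 after Yap knockdown, 4324, 4531 and 4343 after Wwtr1 knockdown and 2994, 3203 and 3037 in the double knockdown. No 2 of the 4 groups overlapped for Sesn2, in the order Wwtr1 siRNA, negative siRNA, Yap siRNA, double knockdown, and it fell by 22.1% in the double knockdown, the least of the 7 (log2 -0.36, SE 0.06, adjusted p = 0.000723 by limma). Against negative siRNA the single knockdowns did not pass for Sesn2 (log2 -0.16 after Yap knockdown and 0.16 after Wwtr1 knockdown, adjusted p in limma 0.139 and 0.128).

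Ddit4 (REDD1, another inhibitor of mTORC1 that also answers to hypoxia, glucocorticoid and DNA damage) was higher after Yap but not after Wwtr1 siRNA. It was highest with both siRNAs. It was 2235, 2007 and 1887 normalized counts in the controls, 3400, 3594 and 2692 after Yap knockdown and 2101, 1872 and 1435 after Wwtr1 knockdown. Depletion of both gave 5003, 4471 and 5452, above all other libraries. Ddit4 rose 2.43-fold in the double knockdown (log2 1.28, SE 0.15, adjusted p = 7.80e-05 by limma) and 1.57-fold after Yap knockdown (log2 0.65, SE 0.15, adjusted p = 0.0295 by limma). The Yap siRNA call was lost without any 1 of 4 libraries (negative replicates 2 and 3, Yap replicates 1 and 2; limma adjusted p up to 0.122). The direct comparison of both single knockdowns, Yap less Wwtr1, gave a log2 difference of 0.85 (SE 0.15, adjusted p = 0.00532 by limma). Against Yap knockdown alone the double knockdown was higher by log2 0.63 (SE 0.15, adjusted p = 0.0148 by limma).

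Trib3, a pseudokinase that feeds back on ATF4 and CHOP, was highest after Wwtr1 knockdown. It was 1859, 2133 and 2278 normalized counts in the controls, 1658, 1912 and 1749 after Yap knockdown and 1947, 2315 and 1617 in the double knockdown, 3 groups that overlapped. After Wwtr1 knockdown it was 3131, 3377 and 3343, above every other library. Trib3 rose 1.58-fold after Wwtr1 knockdown (log2 0.66, SE 0.12, adjusted p = 0.00599 by limma), and the call held without each library in turn. In the double knockdown, where Wwtr1 was also lowered but stood 1.51-fold above its level after Wwtr1 knockdown alone (adjusted p = 0.00804 by limma), the log2 fold change against negative siRNA was -0.10 (95% confidence interval -0.36 to 0.16, adjusted p = 0.549 by limma).

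The promoters of Chac1 and Trib3 are shown because these were the only members with the C/EBP-ATF response element (CARE), the composite site at which ATF4 binds with C/EBP proteins, in the window searched. Windows ran from 250 bases before to 50 after the start site in RefSeq's table (build GRCr8, while the expression files use rn6), and all 10 genes had one. The letters TGATGNAA were searched on both strands. They occurred in 2 of 10 members and in 3.98% of all 33469 promoters of that length, or 2.01% of the 9855 that belong to tested genes. The 250 bases before the start site follow, 5′ to 3′ along the gene, with the element in capitals as it reads on that strand (both are matches on the opposite strand). Chac1 (strand +) covers chr3:126795881-126796130 and Trib3 (strand -) covers chr3:161275534-161275783.
Chac1: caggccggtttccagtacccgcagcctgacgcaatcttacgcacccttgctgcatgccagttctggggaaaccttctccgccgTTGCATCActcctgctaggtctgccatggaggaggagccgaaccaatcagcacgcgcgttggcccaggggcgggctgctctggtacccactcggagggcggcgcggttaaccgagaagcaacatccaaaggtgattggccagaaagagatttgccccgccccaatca
Trib3: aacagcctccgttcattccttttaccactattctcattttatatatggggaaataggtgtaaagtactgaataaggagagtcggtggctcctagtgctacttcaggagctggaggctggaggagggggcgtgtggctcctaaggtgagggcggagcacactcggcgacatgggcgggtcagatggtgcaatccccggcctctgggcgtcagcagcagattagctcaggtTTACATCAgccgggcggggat
The element began 167 bases before the start site in Chac1 and 21 before it in Trib3. These 2 genes differed in expression: Chac1 fell in the double knockdown and overlapped with the controls after Wwtr1 siRNA, whereas Trib3 rose after Wwtr1 knockdown and overlapped with the controls in the double knockdown. The letters of the antioxidant response element, TGACNNNGC, occurred in Phgdh and Sesn2 (12.1% of all promoters), and CATTCC, the core of the TEAD site through which Yap and Wwtr1 act, occurred in Trib3 alone (14.2% of all promoters). Such matches describe the letters in this window and were not tested for binding.

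The 2 single knockdowns were also compared with each other. Of the 10 genes 4 were called (8.79% of all genes, 4.57% higher and 4.22% lower): Ddit4 was higher after Yap knockdown, and Trib3 (log2 -0.89, SE 0.12, adjusted p = 0.00159 by limma), Sesn2 (log2 -0.32, SE 0.06, adjusted p = 0.00701 by limma) and Asns (log2 -0.33, SE 0.09, adjusted p = 0.0462 by limma) were lower. The Asns call was lost without any 1 of 9 libraries, with adjusted p up to 0.174 in limma. With the replicate block and without the double knockdown libraries 7 were called, which added Atf4, Chac1 and Psat1 as lower after Yap knockdown (22.6% of all genes). The libraries of both single knockdowns did not overlap for 6 genes (31.9% of all genes). The log2 difference of Ddit3 was -0.19 (95% confidence interval -0.64 to 0.26, adjusted p = 0.619 by limma).

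The double knockdown differed from each single knockdown for most of the set. Against Wwtr1 siRNA 9 of 10 genes were called (19.9% of all genes, 9.75% higher and 10.1% lower), 8 of them lower, with Trib3 at -40.9% and Ddit4 2.78-fold higher. Ddit3 was the exception (log2 0.57, SE 0.21, adjusted p = 0.0729 by limma). It passed without Wwtr1 replicate 1 (log2 0.83, adjusted p = 0.00681 by limma). Against Yap siRNA 7 were called (13.8% of all genes, 6.83% higher and 6.96% lower): Ddit3 and Ddit4 were higher and Atf4, Asns, Chac1, Phgdh and Sesn2 lower. Libraries did not overlap for 9 genes against Wwtr1 siRNA (37.3% of all genes) and for 8 against Yap siRNA (30.5%). The count of 7 calls fell to 1, Phgdh, without Yap replicate 3 (6.39% of all genes) and to 2, Phgdh and Ddit4, without double knockdown replicate 1 (8.95%), and it was 4 without Yap replicate 2 (10.8%). Sesn2 (log2 -0.20) lost its call without any of the 12 libraries. With the replicate block it was 9 (17.9% of all genes), which added Psat1 and Slc7a11 as lower, and the block also called Ddit3 against Wwtr1 siRNA (adjusted p = 0.0169 by limma).

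Whether the double knockdown differed from the sum of both single effects was tested as an interaction on the log2 scale. Each target was depleted less in the double knockdown than alone: Wwtr1 was 1.51-fold above the Wwtr1 knockdown, and Yap1 was 1.59-fold above the Yap knockdown (adjusted p = 0.0623 by limma, not past the threshold), with no overlap for either. The part of this in the values, and that of any larger amount of siRNA with both targets, was not tested. No member passed in limma or in edgeR, where 1.03% of all genes were called by limma (0.421% higher, 0.607% lower). At an unadjusted p under 0.05, 7 of 10 passed, where 14% of all genes did. DESeq2 called 2, Sesn2 and Ddit4, where it called 4.32% of all genes. The interaction was -0.35 for Sesn2 (SE 0.08, adjusted p = 0.0654 by limma) and 0.82 for Ddit4 (SE 0.21, adjusted p = 0.0786 by limma). For Atf4 it was -0.33 (95% confidence interval -0.57 to -0.09, adjusted p = 0.203 by limma), and for Ddit3 it was -0.01 with a 95% confidence interval from -0.64 to 0.62.

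Across the 12 libraries the 7 falling genes went up and down together, and Ddit3 and Ddit4 went against them. Pearson's r on log2(normalized count + 1) is given here as a description, and much of it reflects the differences between the 4 groups. The genes were grouped by their calls in the double knockdown, so these signs over all libraries follow in part from the grouping. Over the 21 pairs of the 7 genes r had a median of 0.83 and ran from 0.58 to 0.96. After each library was set against its own group mean the median was 0.44, from -0.43 to 0.78. Atf4 and Asns had r = 0.96 over all libraries and Atf4 and Chac1 0.96. Ddit4 and Atf4 had r = -0.96, and Ddit3 and Phgdh -0.92. Within groups Ddit3 and Asns remained at -0.87 and Ddit4 and Atf4 at -0.83. Slc7a11 and Sesn2 went less with Atf4 within groups, where r was -0.08 and 0.36.

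**Figure D3:**
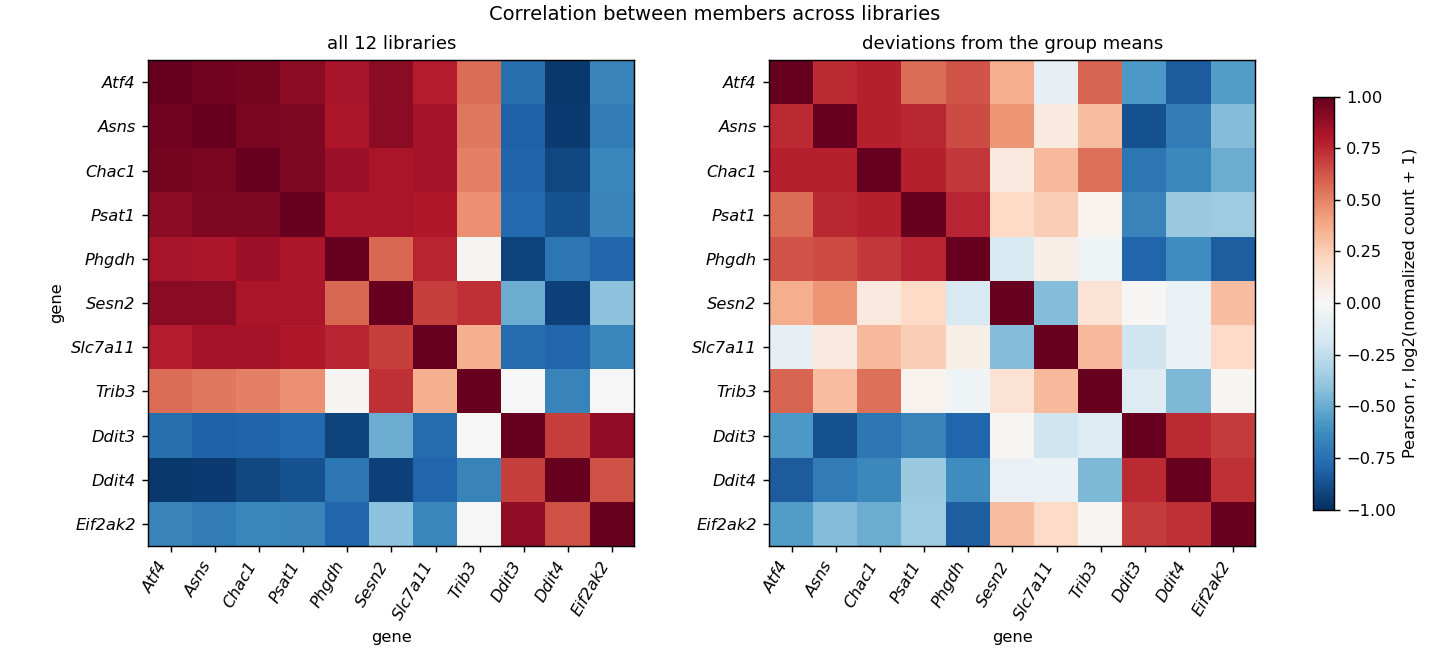
Both panels show Pearson's r between the 10 genes and Eif2ak2 over 12 libraries, on the left for log2(normalized count + 1) and on the right for deviations from the group means, on a colour scale from -1 (blue) to 1 (red). Atf4, Asns, Chac1, Psat1 and Phgdh form a red block in both panels, and Ddit3, Ddit4 and Eif2ak2 form another that is blue against it.

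Likeness was ranked over 10101 other genes averaging 100 normalized counts or more. The 3 whose pattern over the 12 libraries was most like that of Atf4 were Mthfd2, a mitochondrial folate enzyme (r = 0.99), Wsb2 (0.98) and Smurf1 (0.97). For Asns they were Fads3 (0.98), Mars1 (methionyl-tRNA synthetase, 0.98) and Farsb (a subunit of phenylalanyl-tRNA synthetase, 0.97). For Ddit4 they were Gem (0.97), Tcp11l2 (0.96) and Abr (0.96), and for Slc7a11 Cyfip1, Pak3 and Dimt1 (0.95, 0.95 and 0.94). Among the same genes Asns ranked 11 and Chac1 20 for Atf4, while Slc7a11 ranked 785.

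Upstream of ATF4, the kinase for double-stranded RNA rose and none of the other 3 was called higher. Eif2ak2 (PKR), which interferon induces, was 1246, 1908 and 1120 normalized counts in the controls, 5115, 5046 and 3247 after Yap knockdown and 5875, 5214 and 2345 after Wwtr1 knockdown. Depletion of both gave 6282, 6526 and 5814. No knockdown library overlapped with the controls, and replicate 3 was the lowest in both single knockdowns. Eif2ak2 rose by log2 1.66 after Yap knockdown (SE 0.31, adjusted p = 0.0138 by limma), 1.58 after Wwtr1 knockdown (SE 0.31, adjusted p = 0.00832 by limma) and 2.16 in the double knockdown (SE 0.31, adjusted p = 0.000328 by limma).

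Eif2ak3 (PERK) and Eif2ak4 (GCN2) had log2 fold changes between -0.10 and 0.17 in the 3 comparisons and did not pass. Eif2ak1 (HRI) fell by 0.40 on the log2 scale after Wwtr1 knockdown (SE 0.09, adjusted p = 0.0177 by limma) and was at 0.27 after Yap knockdown and -0.15 in the double knockdown, neither past the threshold. Of 12 listed double-stranded RNA sensors and adaptors, Eif2ak2 included, 8 rose after Yap knockdown (3.02% of all genes), 8 after Wwtr1 knockdown (5%), where Mavs fell, and 11 in the double knockdown (17.1%). Without double knockdown replicate 3 it was 10, and Mavs was called lower (log2 -0.27, adjusted p = 0.0315 by limma). Dhx58, for example, rose by log2 4.75 (SE 0.53, adjusted p = 7.36e-05 by limma). Zbp1 was listed at 0 in all 3 negative siRNA libraries and at 237, 277 and 324 normalized counts in the double knockdown. Single Oas genes are uncertain because near-identical family members can share reads.

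Set against Eif2ak2 over all libraries, the members divided by sign. The 7 falling genes, Ddit3 and Ddit4 were grouped by their calls in the double knockdown, where Eif2ak2 also rose. Much of that division thus follows from the grouping. Over the 12 libraries Eif2ak2 had r = 0.89 with Ddit3 and 0.64 with Ddit4, and r from -0.79 to -0.41 with the 7 falling genes. Within groups these were 0.70 for Ddit3, 0.73 for Ddit4 and -0.83 to 0.31 for the 7, with Sesn2 (0.31) and Slc7a11 (0.19) above 0. Replicate 3 had the lowest Eif2ak2 in all 4 groups. It also had the lowest Ddit3 in all 4 and the lowest Ddit4 in all but the double knockdown, where its Ddit4 was the highest. For Trib3 r with Eif2ak2 was 0.00 over all libraries and 0.02 within groups.

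**Figure D4:**
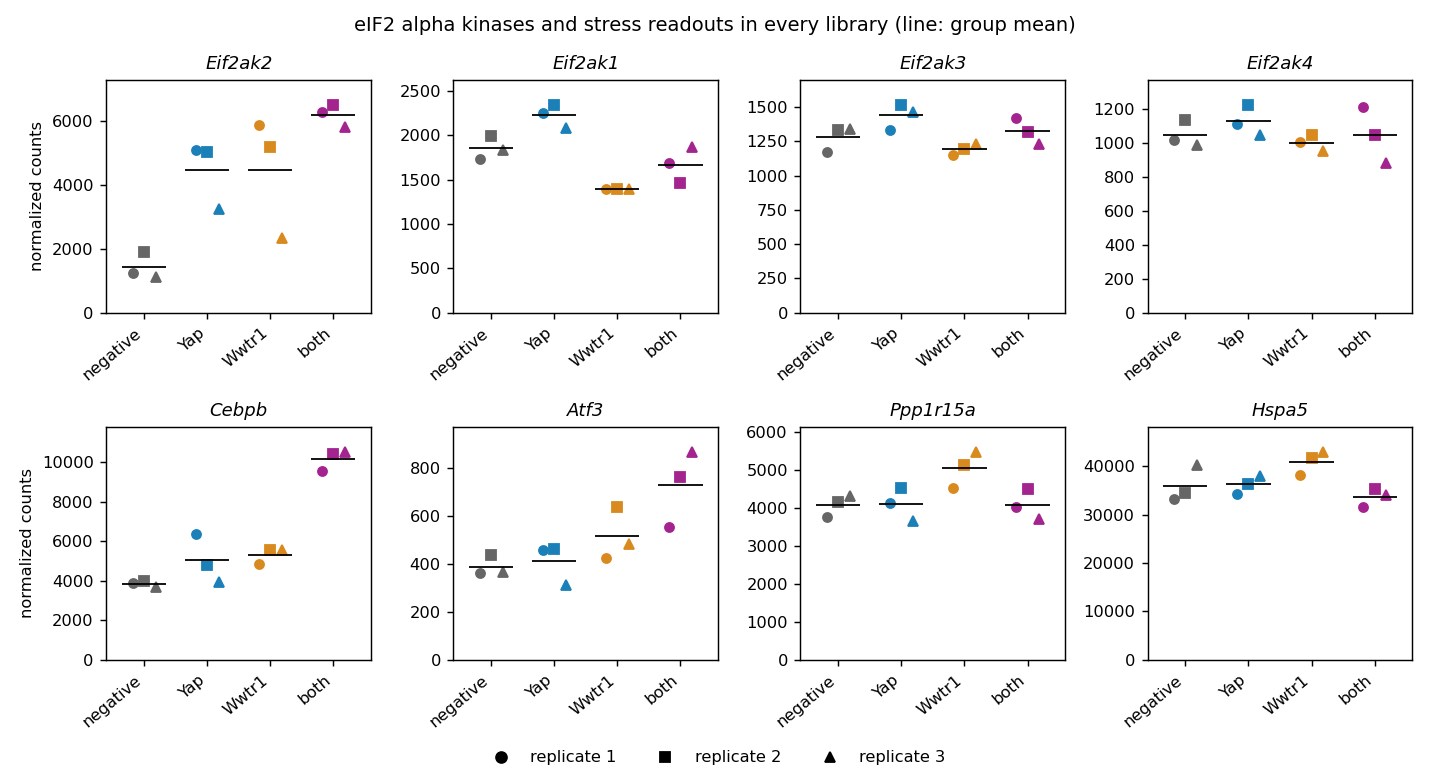
Each panel shows 1 gene in normalized counts on an axis from 0 in the 4 groups, with a point per library and a line at the group mean: the 4 eIF2 alpha kinases above, and Cebpb, Atf3, Ppp1r15a and Hspa5 below. Eif2ak2 stands above the controls in all 9 knockdown libraries, Cebpb and Atf3 have their highest group means in the double knockdown, and Ppp1r15a and Hspa5 overlap between the double knockdown and the controls.

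The other transcription factors of the response went both ways in the double knockdown. Cebpb, the C/EBP partner of ATF4 that also answers to inflammation, was 3871, 3977 and 3694 normalized counts in the controls and 9557, 10434 and 10540 in the double knockdown, and rose 2.64-fold (log2 1.40, SE 0.14, adjusted p = 3.21e-05 by limma). Atf3, a stress-induced factor downstream of ATF4, was 364, 436 and 367 in the controls and 555, 765 and 869 in the double knockdown, a rise of log2 0.89 (SE 0.21, adjusted p = 0.00669 by limma). Neither passed in a single knockdown. Of the 7 factors listed 3 rose (Cebpa was the third) and 2 fell in the double knockdown, among the latter Jdp2 at log2 -0.55, where 17.1% of all genes were called higher and 15.6% lower. Without replicate 3 of that group 2 rose and 3 fell, since Cebpa lost its call (log2 0.32, adjusted p = 0.0834 by limma) and Atf5 gained one (log2 -0.31, adjusted p = 0.0335 by limma). Ppp1r15a (GADD34), the ATF4-induced subunit that directs a phosphatase to eIF2 alpha, was 3767, 4148 and 4316 in the controls and 4012, 4484 and 3716 in the double knockdown, a log2 fold change of -0.00 (95% confidence interval -0.23 to 0.22). Of the 12 genes of eIF2, its exchange factor and its phosphatase, 4 fell and 1 rose there, with Eif2b3 (log2 -0.61), Eif2s2 (-0.57) and Eif2s1 (-0.44, eIF2 alpha itself) lower and Eif2b4 (0.40) higher.

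Genes of the wider amino acid program mostly fell in the double knockdown. The lists of all pathways, with RNA sensors, Yap targets and other stress programs, held 162 tested genes that are not members, each counted once. Of these 24 were called after Yap knockdown (4.8% of all genes) and 31 after Wwtr1 knockdown (8.96%). With the replicate block and without the double knockdown libraries these were 59 (16.0% of all genes) and 58 (21.3%). In the double knockdown 83 of the 162 were called (32.8% of all genes), 32 higher and 51 lower. Of 20 cytosolic aminoacyl-tRNA synthetase genes, which charge tRNA and of which many are ATF4 targets, 13 fell and none rose, where 15.6% of all genes were called lower, and their median was -0.42 on the log2 scale. Iars1 (log2 -0.63), Farsb (-0.63), Lars1 (-0.59) and Eprs (-0.55) fell most. After Yap knockdown 1 fell, Farsb, and after Wwtr1 knockdown 2 rose, Wars1 and Kars. Of 14 genes of amino acid and one-carbon synthesis outside the set 8 fell and 1 rose (Gpt2) in the double knockdown, led by Pycr1 (proline synthesis, log2 -0.89), Cth (cysteine synthesis, -0.85), Mthfd1l (-0.79) and Mthfd2 (-0.78). Of 11 amino acid transporters 7 fell and 3 rose, with the neutral amino acid carrier Slc1a4 at log2 -1.29 (3391, 3260 and 3740 normalized counts in the controls, and 1380, 1518 and 1357 in the double knockdown) and Slc7a6 at -0.71, and with Slc43a1 at 0.79 and Slc38a1 at 0.66. Without double knockdown replicate 3, 14 synthetases were called lower (Dars was added), 8 synthesis genes lower and 2 higher (Aldh1l2 replaced Got1 among the lower and Shmt1 joined Gpt2), and 7 transporters lower and 3 higher.

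Fewer list genes, like fewer of all genes (4.8% and 8.96% against 32.8%), were called in the single knockdowns than in the double knockdown. After Wwtr1 knockdown 4 transporters rose and 1 fell, and 3 of the 14 synthesis genes rose and none fell. After Yap knockdown 1 transporter rose, and 2 synthesis genes rose and 1 fell. Shmt2, the mitochondrial serine to glycine enzyme, was 4991, 4854 and 5310 normalized counts in the controls. It was 7147, 7359 and 8497 after Yap knockdown and 8326, 8885 and 9914 after Wwtr1 knockdown, all above the controls. The double knockdown libraries were at 4972, 5840 and 6629, which overlapped with the controls.

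Targets of ATF4 and CHOP outside amino acid supply were mixed. Of 18 genes 5 rose and 3 fell in the double knockdown, with Vldlr (a lipoprotein receptor, log2 -1.52) and Eif4ebp1 (a repressor of cap-dependent translation, -0.97) furthest down among the called genes, and Gadd45a (a growth arrest gene, 0.92) and Gabarapl1 (an autophagy gene, 0.77) furthest up among them. Ndrg1 was at 0.99 and did not pass. The median of this list was 0.09. Of 18 genes of the endoplasmic reticulum branches, chaperones and ATF6 or XBP1 targets, none rose and 3 fell there, Sel1l, Pdia6 and Manf, by 0.33, 0.31 and 0.29 on the log2 scale, a share close to the 15.6% of all genes called lower. None of the 18 passed in either single knockdown by limma, although 6 after Yap knockdown and 10 after Wwtr1 knockdown had an unadjusted p under 0.05 (19.7% and 23.9% of all genes).

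**Figure D5:**
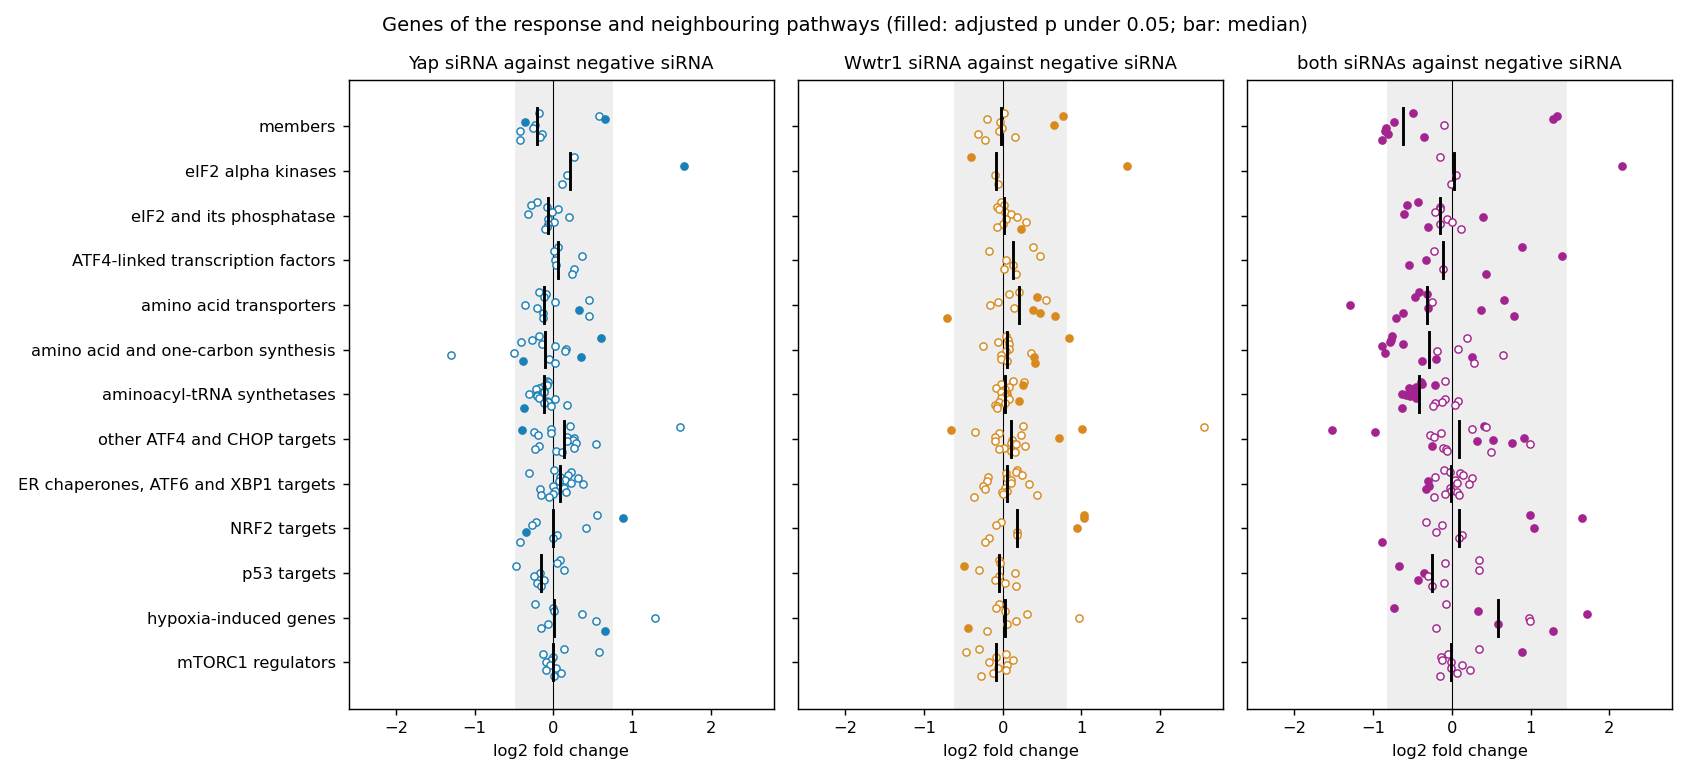
Each point is a gene placed by its log2 fold change against negative siRNA (horizontal axis, 1 panel each for Yap siRNA, Wwtr1 siRNA and both), in rows by list, filled where the adjusted p was under 0.05, with a bar at the list's median and a grey band from the 5th to the 95th percentile of all genes tested. With both siRNAs the synthetases and the members lie mostly left of 0, the endoplasmic reticulum genes lie around 0, and only Eif2ak2 stands apart among the kinases.

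Several members belong to other stress programs, whose genes were counted in the double knockdown too, where 17.1% of all genes were called higher and 15.6% lower. Slc7a11 is also induced by NRF2. Of 9 NRF2 targets listed 3 rose in the double knockdown, Hmox1 (log2 1.65), Srxn1 (1.05) and Nqo1 (0.99), and Slc7a11 was the only one to fall. Sesn2 is also a p53 target, and of 9 such genes 3 fell (Ccng1 at log2 -0.67, Bax at -0.43 and Sesn2) and none rose with all libraries. Ddit4 is also induced by hypoxia and by glucocorticoid. Of 9 hypoxia-induced genes 4 rose, among them Egln3 (log2 1.71), Slc2a1 (0.59) and Ddit4, and 1 fell, Adm (-0.73). Of 6 glucocorticoid-induced genes 2 rose, Ddit4 and Fkbp5 (0.48). Of 11 other regulators of mTORC1 1 was called with all libraries, Sesn3 (log2 0.89, SE 0.24, adjusted p = 0.0156 by limma). Of 11 Yap targets 8 fell, with Ccn2, Amotl2, Ankrd1 and Ccn1 at log2 -1.85 to -1.63. Several of these calls depended on double knockdown replicate 3. Without it Fkbp5 (log2 0.35, adjusted p = 0.0539 by limma) and the hypoxia-induced gene Bnip3 (log2 0.26, adjusted p = 0.0773 by limma) did not pass, which left 1 glucocorticoid-induced and 3 hypoxia-induced genes higher. The p53 target Cdkn1a (log2 0.51, adjusted p = 0.0444 by limma) and the mTORC1 regulator Depdc5 (log2 0.32, adjusted p = 0.0243 by limma) were then called higher.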

How the data were processed

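RNA sequencing was done on 12 libraries in 4 groups, which were taken with their replicate numbers from the sample titles. Per the submitters' processing notes and the study's methods, the authors trimmed reads (Trim Galore 0.6.5), aligned them to rat build rn6 with HISAT2, assembled transcripts with StringTie2 and tested differences with DESeq2. The deposited values, with a symbol per gene, are of the unit signal: each library's counts scaled by a size factor of its own. In all 12 libraries 100% of 147252 values were whole multiples of one step (tolerance 0.001), and the recovered totals were 33.9 to 41.1 in units of 1e+06 reads. Whether counting used the strand is not given in the sources used here. The authors' own fold changes and p-values were deposited too and were not used.

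Genes whose mean reached 10 normalized counts entered limma 3.58.1 (R 4.3.3) on log2(normalized count + 1), which understates changes of low genes, in one fit of all 12 libraries with eBayes and a trend, two-sided, with Benjamini-Hochberg adjustment and a threshold of 0.05. The fit was tested on simulated data. Alternatives were pseudocounts of 0.1 and 10, no filter, a mean of at least 100, TMM scaling, the recovered reads in edgeR 4.0.16 and in DESeq2 1.42.0, only the groups compared, a replicate block, no trend, and each library left out. Deviations of same-numbered libraries from their group means correlated at 0.104 to 0.276 in all 9 pairs among negative, Yap and Wwtr1 siRNA, so the numbers were taken to pair these groups. With the double knockdown they ran from -0.127 to 0.180. They were above 0 against Wwtr1 siRNA (0.068 to 0.180) and of both signs against negative and Yap siRNA. Whether its numbers pair with the other groups is thus not settled. The labels do not say that numbers mark litters, while the study's methods state that isolation and treatment were repeated on separate litters.

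The members and lists were chosen with earlier results of these data known. Named were the 10 members, the 4 eIF2 alpha kinases, Atf3, Ppp1r15a, Yap1 and Wwtr1, from each list up to 4 genes with the largest change called in the double knockdown with a mean of at least 100, and for 4 members the 3 genes of highest Pearson r. Shmt2, Gpt2, Wars1, Kars, Hspa5, Mars1 and other names outside that rule were chosen after their values were seen. Promoter sequences are RefSeq's (GRCr8).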

Additional observations from a re-analysis of the deposited data

Results flagged for a closer look

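No member passed the interaction test in limma, but 8 of the 162 tested list genes that are not members did, where 1.03% of all genes were called (0.607% lower), which means that the effect of both siRNAs together differed from the sum of both single effects. All 8 were negative. Among genes of amino acid supply, the interaction on the log2 scale was -1.24 for Shmt2 (SE 0.15, adjusted p = 0.00518 by limma), -0.97 for Slc7a3 (SE 0.17, adjusted p = 0.0257 by limma), -0.78 for Slc7a1 (SE 0.16, adjusted p = 0.045 by limma) and -0.50 for Gpt2 (SE 0.10, adjusted p = 0.042 by limma). Slc7a1 and Slc7a3, carriers of cationic amino acids, were higher after Wwtr1 knockdown (log2 0.44 and 0.48), near control after Yap knockdown (log2 -0.12 and -0.13, not called) and lower in the double knockdown (log2 -0.46 and -0.63). Slc7a3, for example, was 1396, 1362 and 1421 normalized counts in the controls, 1755, 2319 and 1796 after Wwtr1 knockdown and 885, 1013 and 818 in the double knockdown, with no overlap between these groups. For the synthetases Gars and Wars1 the interaction was -0.59 (SE 0.12, adjusted p = 0.0442 by limma) and -0.40 (SE 0.08, adjusted p = 0.0399 by limma). Outside the response it was -0.97 for the Yap target Amotl2 (SE 0.15, adjusted p = 0.0155 by limma) and -5.15 for Zbp1. Zbp1 was listed at 0 in all 3 negative siRNA libraries, so its value is no bound and ran from -8.65 to -2.08 over the alternatives that keep all libraries. Shmt2 and Amotl2 passed without each library in turn, whereas Slc7a3 passed in 7 of 12 such fits, Slc7a1, Gars and Wars1 in 2, and Gpt2 in 1. The adjusted p of these 5 reached at most 0.121 over these fits and the 10 other alternatives (limma, edgeR or DESeq2). Zbp1 passed in 11 of the 12 fits and 8 of the 10 alternatives, with an adjusted p of at most 0.21 over the same tools.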

How the results depend on the processing

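All 9 calls of members in the double knockdown against negative siRNA kept direction and significance under every alternative run. The counts in the single knockdowns did not. The replicate block alone gave 3 members after Yap knockdown (2 without it) and 4 between Yap and Wwtr1 knockdown (4 without it). When the double knockdown libraries were also left out, these were 8 (16.0% of all genes) and 7 (22.6%), and list genes called were 59 after Yap and 58 after Wwtr1 knockdown (24 and 31 with neither change). The block changed no call of members in the double knockdown against the controls. Without a trend in eBayes the members called were 0 after Yap knockdown (2.48% of all genes), 1 after Wwtr1 knockdown (7.01%) and 4 between the double and Yap knockdowns (11.2%), and the list genes called after Yap knockdown were 13. With only the groups compared, 4 members were called between the double and Yap knockdowns (6.52% of all genes), and DESeq2 called 2 in the interaction (4.32%). With each library left out in turn the members called ran from 0 to 3 (Yap), 1 to 2 (Wwtr1), 9 to 9 (double), 3 to 5 (Yap against Wwtr1), 1 to 7 (double against Yap), 9 to 10 (double against Wwtr1) and 0 to 0 (interaction), and the list genes from 7 to 30 (Yap), 19 to 37 (Wwtr1) and 77 to 85 (double). The share of all genes called moved too, from 0.935% to 6.44% (Yap), 4.62% to 11.95% (Wwtr1), 23.1% to 34.2% (double), 3.66% to 11.9% (Yap against Wwtr1), 6.39% to 15.8% (double against Yap), 10.85% to 19.7% (double against Wwtr1) and 0.261% to 1.35% (interaction). The lowest list counts came without Yap replicate 1 and Wwtr1 replicate 2, and the lowest share between Yap and Wwtr1 knockdown (8.79% with all libraries) and in the interaction without Wwtr1 replicate 2, and against Wwtr1 knockdown without Wwtr1 replicate 3. The cause was not tested, although such fits hold fewer samples.

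Directions turned only for values near 0 that passed in no fit. For Chac1 after Wwtr1 knockdown the log2 fold change was 0.0018 in edgeR and 0.0043 in DESeq2. With a library left out, values after Wwtr1 knockdown ran from -0.029 to 0.062 for Atf4, -0.094 to 0.062 for Asns, -0.12 to 0.13 for Chac1 and -0.11 to 0.053 for Psat1, that of Trib3 in the double knockdown from -0.23 to 0.028, and those of Ddit3 from -0.37 to 0.073 between Yap and Wwtr1 knockdown and from -0.20 to 0.25 in the interaction.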

Other observations

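The synthetases that fell in the double knockdown and those that did not were looked at after their values were seen, so no test is attached. The 13 that fell were Cars, Eprs, Farsb, Gars, Iars1, Lars1, Mars1, Nars1, Sars1, Tars1, Vars1, Wars1 and Yars1, with log2 fold changes from -0.63 for Iars1 to -0.22 for Wars1. The 7 that did not pass were Aars, Dars, Farsa, Hars1, Kars, Qars1 and Rars1, with log2 fold changes from -0.24 for Farsa to 0.07 for Kars. Farsa and Farsb encode both subunits of one enzyme, at log2 -0.24 (adjusted p = 0.0795 by limma) and -0.63 (adjusted p = 0.00016 by limma).

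Stc2, a secreted glycoprotein that stress induces, was the target outside amino acid supply with the largest call in the Wwtr1 knockdown. It rose there by log2 1.01 (SE 0.17, adjusted p = 0.00442 by limma) and was at 0.25 in the double knockdown (adjusted p = 0.290 by limma), as Trib3 was higher after Wwtr1 knockdown alone. Stc2 and Trib3 were set side by side after their values were seen.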
